A study of Mus musculus with 8 samples.

Results

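Transcripts of 10 genes that receive, relay and restrain interferon signals were measured in mouse bone marrow cells labelled as hematopoietic stem cells (HSCs), the cells that give rise to all blood lineages, although several stem cell markers read at or near background. The genes were chosen by symbol, namely the type I receptor chains Ifnar1 and Ifnar2, the type II chains Ifngr1 and Ifngr2, the kinases Jak1, Jak2 and Tyk2, and the inhibitors Socs1, Socs2 and Socs3, and they were 10 of 24213 genes measured. One array each was made from 4 conditional knockout mice carrying Atg12 flox/flox and Mx1-Cre and from 4 control mice carrying Atg12 flox/flox without Cre, all on C57BL/6. Atg12 encodes a ubiquitin-like protein needed to form autophagosomes. Mice of both genotypes were given poly(I:C), an interferon-inducing mimic of viral RNA, when 4 weeks old. The cells were taken 2 to 3 months later, at 3 to 4 months of age, by a sort that kept cells with c-Kit, Sca-1 and CD150 on their surface and discarded those with lineage markers, CD48 or Flk2. Mx1 is itself an interferon-induced gene, so Cre is made in cells that respond to interferon, and since only knockouts carry it, an effect of Cre and of Atg12 loss cannot be told apart. The comparison addresses whether cells of mice with Atg12 deleted carry other amounts of interferon signalling transcripts long after the injection.

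Type I interferons bind a receptor of the chains IFNAR1 and IFNAR2, whose cytoplasmic tails hold the kinases TYK2 and JAK1. Interferon gamma binds IFNGR1 and IFNGR2, which hold JAK1 and JAK2. The kinases phosphorylate STAT proteins, which enter the nucleus with or without IRF9 and switch on interferon-stimulated genes, among them the inhibitors SOCS1 and SOCS3. In HSCs, interferon can call dormant cells into the cycle, and JAK2 also relays thrombopoietin, which maintains these cells.

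Of the 10 genes, 9 had a promoter sequence in the RefSeq table of build GRCm38.p6 (all but Socs2). Each window ran from 250 bases before the annotated start to 50 bases after it, and both strands were searched. The core of the interferon-stimulated response element, GAAA repeated after a gap of any 2 bases, was found in 1 of the 9, Socs1, against 3.49% of 27025 promoters. There GAAA stood 3 times in a row with such gaps, so that 2 cores overlapped, a form held by 34 of the 27025 promoters (0.126%). Of the interferon target genes listed for comparison, Oas1a, Gbp3 and Irgm1 hold the same form. Their upstream bases are shown because Socs1 and these 3 targets share the element while their differences between knockouts and controls ranged from 0.05 for Socs1 to 1.11 for Oas1a without a sex covariate. Each line is written 5′ to 3′ on the gene's strand and ends at the base before the start, with the element in capitals; in Gbp3 it lies on the opposite strand.
Socs1, chr16:10785537-10785656, minus strand: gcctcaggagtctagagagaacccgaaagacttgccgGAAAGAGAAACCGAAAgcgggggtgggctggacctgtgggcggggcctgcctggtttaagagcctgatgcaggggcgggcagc
Oas1a, chr5:120907526-120907645, minus strand: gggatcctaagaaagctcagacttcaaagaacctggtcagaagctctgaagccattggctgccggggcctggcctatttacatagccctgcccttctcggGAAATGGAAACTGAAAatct
Gbp3, chr3:142559924-142560043, plus strand: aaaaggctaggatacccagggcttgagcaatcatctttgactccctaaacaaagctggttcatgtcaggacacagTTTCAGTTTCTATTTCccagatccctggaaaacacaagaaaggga
Irgm1, chr11:48871421-48871540, minus strand: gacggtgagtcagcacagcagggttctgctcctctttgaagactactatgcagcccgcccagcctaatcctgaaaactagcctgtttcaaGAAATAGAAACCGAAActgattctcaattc

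The gamma-activated sequence TTCNNNGAA, the form bound by STAT dimers and identical on both strands, was found in 3 of the 9 promoters (Ifnar1, Ifnar2 and Socs3), against 8.47% of all. It is shown for Socs3, where its first base lies 154 bases before the start, and for Ifnar2, where it lies 214 bases before. A match is a run of letters, not a shown binding site.
Socs3, chr11:117969467-117969566, minus strand: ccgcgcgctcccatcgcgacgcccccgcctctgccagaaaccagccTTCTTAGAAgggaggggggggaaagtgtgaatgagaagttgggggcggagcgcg
Ifnar2, chr16:91372533-91372632, plus strand: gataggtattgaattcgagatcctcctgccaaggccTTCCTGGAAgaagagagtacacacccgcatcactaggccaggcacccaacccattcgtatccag

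Values are log2 signals after RMA, a procedure that subtracts background, equalises arrays and summarises the probes of a gene, and levels of different genes are not on a common scale. A gene was taken as above background where its signal exceeded the 95th percentile of 1170 olfactory receptor genes, which was 3.22 for the mean over arrays. All 10 genes passed this level, taken for each array, on every array, and so none was left out. Socs2 on knockout 3 passed only barely, at 3.49576 against 3.49535 for that array. Atg12 averaged 5.50 ± 0.13 in knockouts and 6.44 ± 0.08 in controls (SD, n = 4 each) and was the only gene called among all 24213 (limma adjusted p = 0.031), a call that was lost without any single array (adjusted p 0.0542 to 0.226). Atg12 thus still read well above background in knockouts. Markers went in part against the label. Slamf1, the gene of CD150, lay below the olfactory level of its array on all 8 arrays, the stem cell gene Mecom had a mean of 2.95, below that level, and Procr (3.49) and Fgd5 (3.32) had means just above it. Cd48, whose protein the sort excludes, averaged 8.59 in knockouts and 8.63 in controls, and the 5 granule and myeloid progenitor genes Mpo, Prtn3, Ctsg, Elane and Ms4a3 had means of 11.2 to 12.2. Kit averaged 8.44 in knockouts and 8.56 in controls. Ly6a, a gene of Sca-1, averaged 4.66 ± 0.35 in knockouts and 4.01 ± 0.34 in controls (SD, n = 4 each), the largest difference among the 8 stem cell and sort genes at 0.65 (limma adjusted p = 0.991). Of these genes, Mecom, Procr, Fgd5, Ly6a, Cd48 and the granule genes were named after their values were seen. Xist was high (8.12 to 9.50) on knockouts 1, 2 and 4 and control 4, and Y-linked genes were high on knockouts 3 and 4 and controls 1, 2 and 3. Knockout 4 thus carried both signals although 1 mouse is labelled per sample, and sex is unevenly spread over the genotypes. Knockout 3 stood away from the rest along the first principal component (-39.5, others -12.3 to 14.8) and had the highest array median (3.92, others 3.76 to 3.87).

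None of the 10 genes passed the test for a difference between Atg12 knockout and control cells. The 10 log2 differences, knockout minus control, lay between -0.19 for Tyk2 and 0.12 for Ifnar1, with 3 above 0 and 7 below. Their median was -0.03 and the median size 0.06, against a median of 0.002 and a median size of 0.09 over all 24213 genes. By limma, 0 of the 10 passed an adjusted p of 0.05 (adjusted p = 0.9996 for each, adjusted over all genes), where 0.00413% of all genes passed. At an unadjusted p under 0.05 there were also 0 of 10, against 4.94% of all genes, and 0 of 10 had groups that did not overlap, against 2.90% (1.36% of all genes with knockouts higher and 1.54% with knockouts lower). Without knockout 3, without knockout 4 and without both, 0 of the 10 were called as well. Because 4 arrays per group limit the precision, each gene is given below with the 95% interval of its fold, knockout over control. In sorted populations, fewer cells of a type and less RNA per cell cannot be told apart.

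**Figure D1:**
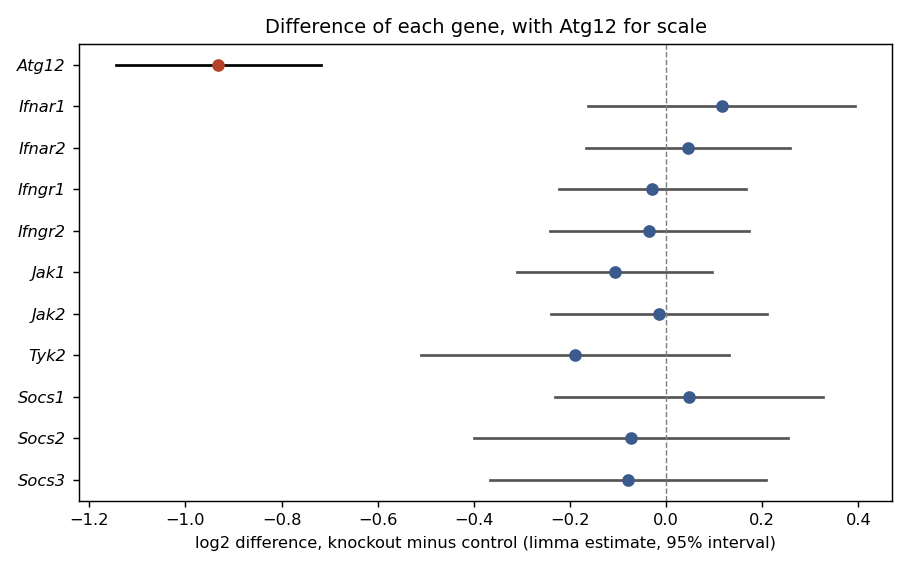
Log2 difference, knockout minus control, of Atg12 and the 10 genes, as points with 95% intervals from limma (n = 4 arrays each). The intervals of all 10 genes span 0, whereas that of Atg12, at -0.93, does not.

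Differences in the type I receptor chains were within the spread of the arrays. Ifnar1, the chain that holds TYK2, read 6.70, 6.72, 6.46 and 6.48 on knockout arrays 1 to 4, against 6.15, 6.49, 6.63 and 6.63 on control arrays 1 to 4. The groups overlapped, and control 1 was the lowest of the 8 arrays. Its fold was 1.08 (95% interval 0.893 to 1.31), and without control 1 the log2 difference was 0.007. Without knockouts 3 and 4, a choice made after seeing the data, both remaining knockouts lay above all controls, at a difference of 0.24. Among the 10 genes this held for 1, and the share of all genes was not counted for 2 knockouts against 4 controls. Ifnar2, the chain that holds JAK1, read 8.37, 8.37, 8.19 and 8.45 in knockouts, against 8.29, 8.30, 8.18 and 8.43 in controls. Here the third array of each group was the low one, and the fold was 1.03 (0.891 to 1.20).

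Both chains of the interferon gamma receptor had overlapping groups, with a within-group SD of 0.08 for Ifngr1 and 0.10 for Ifngr2. Ifngr1, the ligand-binding chain that holds JAK1, read 8.94, 9.03, 8.79 and 8.89 in knockouts, against 8.89, 8.999, 8.97 and 8.90 in controls. Knockouts 3 and 4 lay below all controls, knockout 4 barely, while knockout 2 lay above all, and the fold was 0.980 (95% interval 0.856 to 1.12). Ifngr2, the signalling chain that holds JAK2, read 7.65, 7.63, 7.76 and 7.85 in knockouts, against 7.70, 7.68, 7.76 and 7.88 in controls. Each knockout value had a control value within 0.05 of it, and the fold was 0.976 (0.846 to 1.13). In the RefSeq annotation Ifnar2, Il10rb, Ifnar1 and Ifngr2 are neighbouring protein-coding genes on chromosome 16. Il10rb, named for its place and a chain of the interleukin 10 and lambda interferon receptors, averaged 6.25 ± 0.07 in knockouts and 6.18 ± 0.25 in controls (SD, n = 4 each), and so all 4 neighbours had differences between -0.04 and 0.12.

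**Figure D2:**
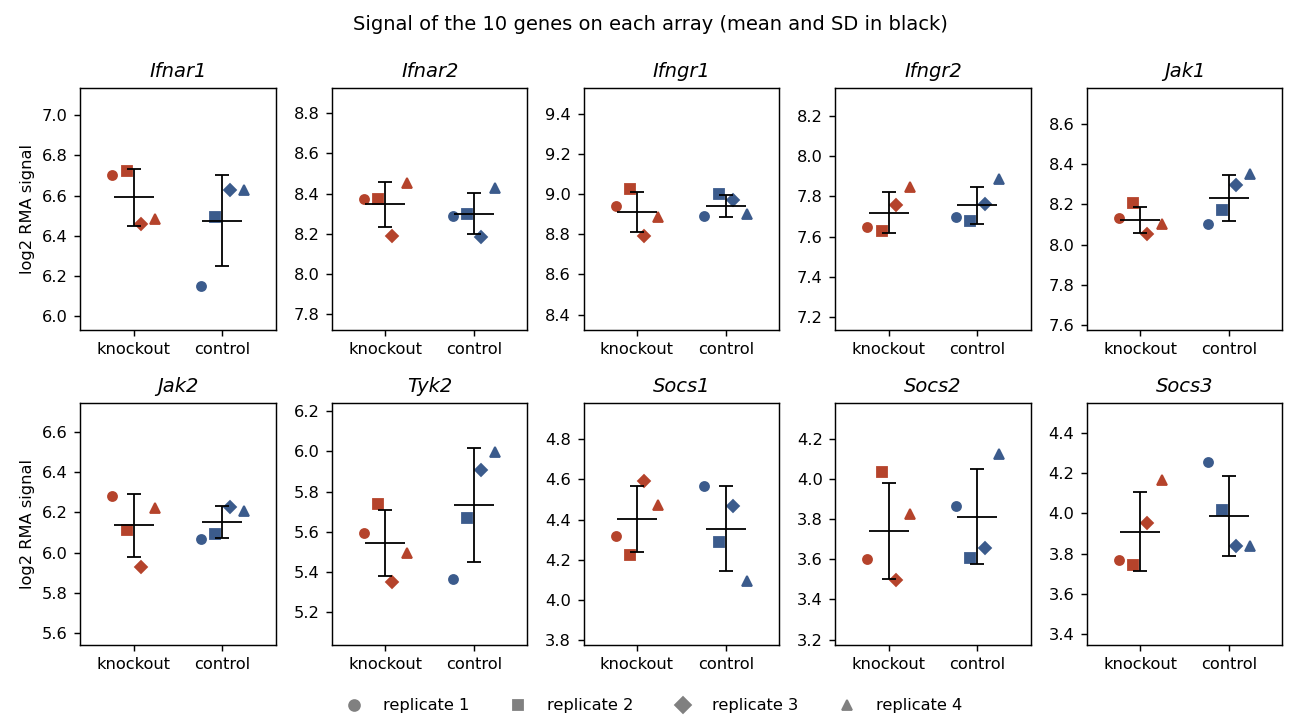
Log2 RMA signal of the 10 genes on each array, knockouts at left and controls at right of each panel, with marker shapes for replicate numbers and mean ± SD (n = 4) in black. Every panel spans the same height on the log2 scale, and the groups overlap in all 10 panels.

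Among the kinases, Tyk2 had the smallest p of the 10 genes, without passing (limma adjusted p = 0.9996). Tyk2, which serves the type I receptor, read 5.59, 5.74, 5.35 and 5.50 in knockouts, against 5.36, 5.67, 5.91 and 6.00 in controls. Controls 3 and 4 lay above every knockout, while control 1 lay next to the lowest knockout. The fold was 0.877 (95% interval 0.702 to 1.09), and the log2 difference of -0.19 became -0.31 without control 1 and -0.10 without control 4. Jak1, shared by both interferon receptors and by many cytokine receptors, read 8.13, 8.21, 8.05 and 8.10 in knockouts, against 8.10, 8.17, 8.30 and 8.35 in controls. Again controls 3 and 4 were above all knockouts and control 1 was among the low arrays, with a fold of 0.928 (0.806 to 1.07). Jak2, which serves interferon gamma and thrombopoietin, read 6.28, 6.11, 5.93 and 6.22 in knockouts, against 6.07, 6.10, 6.23 and 6.21 in controls. Its fold was 0.9899 (0.847 to 1.16), and knockout 3 was its lowest array. Jak3, the kinase paired with the common gamma chain and no member of the chosen set, was added after its values were seen. It averaged 5.80 ± 0.10 in knockouts and 5.61 ± 0.20 in controls (SD, n = 4 each; limma adjusted p = 0.9996).

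Tyk2 and Jak1 went up and down together over the 8 arrays. Among 12759 named genes above the olfactory level, Jak1 had the highest Pearson correlation with Tyk2 (r = 0.977, n = 8 arrays). Next were Lars2, a mitochondrial leucyl-tRNA synthetase (r = 0.974), and Desi2, a desumoylating isopeptidase (r = 0.957). By rank, Lars2 was closer to Tyk2 than Jak1 was (Spearman rho 1.00 for Lars2, 0.976 for Jak1). An r of 0.9 or more was reached by 32 of the 12759 genes. The pattern was present within the groups (r = 0.983 for Jak1 after subtracting each group's mean). It was also present without knockout 3 and control 4, the 2 arrays farthest from the Tyk2 median (r = 0.954 for Jak1, 0.958 for Lars2). Over the 45 pairs of the 10 genes the median r was 0.22, and Jak1 with Tyk2 was the only pair above 0.8. The lowest r was -0.92, between Ifnar1 and the kept probe set of Socs3. A second Socs3 probe set of similar mean ordered the arrays differently, and its r with Ifnar1 was not computed. As top ranks among 12759 genes on 8 arrays, these correlations are a description and carry no test. The arrays on which Tyk2 read lowest, knockout 3 and control 1, were also the 2 lowest on the first principal component (-39.5 and -12.3) and had the 2 highest array medians (3.92 and 3.87), and the part of this in the pattern was not tested.

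**Figure D3:**
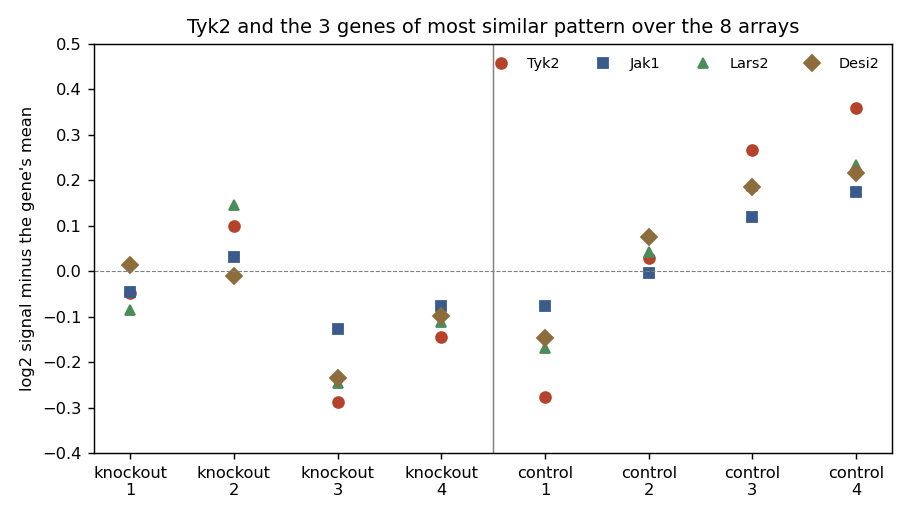
Log2 signal minus the gene's own mean over 8 arrays for Tyk2, Jak1, Lars2 and Desi2, knockouts at left and controls at right. All 4 genes are lowest on knockout 3 and highest on control 4.

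The SOCS inhibitors, feedback genes that the pathway itself induces, also had overlapping groups, and Socs2 and Socs3 read not far above the olfactory level. Socs1, which blocks JAK kinases directly, read 4.32, 4.23, 4.59 and 4.47 in knockouts, against 4.57, 4.29, 4.47 and 4.09 in controls. Highest was knockout 3 and lowest control 4, with the other 6 arrays between them. The fold was 1.03 (95% interval 0.851 to 1.25). Socs2, which restrains growth hormone and other STAT5 signals, read 3.60, 4.04, 3.496 and 3.82 in knockouts, against 3.86, 3.61, 3.66 and 4.12 in controls. Both groups held high and low arrays, and the fold was 0.951 (0.758 to 1.19). Socs3, which binds the interleukin 6 and G-CSF receptors, read 3.77, 3.74, 3.95 and 4.17 in knockouts, against 4.25, 4.02, 3.84 and 3.84 in controls. The fold was 0.947 (0.776 to 1.16), with knockouts 1 and 2 the lowest arrays and control 1 the highest. Socs2 and Socs3 each had a second probe set, with differences of -0.12 and -0.14, and that of Socs2 averaged 2.77, under the olfactory level. The second set of Socs3 averaged 3.89, near the 3.95 of the kept set, but the array patterns differed. Knockout 4 was the lowest array on the second set (3.57) and the highest knockout on the kept set (4.17). Signals so near background can understate a change in Socs2 and Socs3.

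Knockout 3 was the lowest array for 5 of the 10 genes (Ifngr1, Jak1, Jak2, Tyk2 and Socs2), against 27% of the 14639 genes above the olfactory level. Socs2 there read barely above the olfactory level of that array. Control 4 was the highest for 4 of the 10 (Ifngr2, Jak1, Tyk2 and Socs2), against 14.1%. Within the arrays that carried Xist alone (2 knockouts, 1 control), Tyk2 differed by -0.33, Jak1 by -0.18, Socs2 by -0.30 and Ifngr2 by -0.25, and the other 6 genes by -0.08 to 0.18. Within the arrays that carried Y-linked signal alone (1 knockout, 3 controls), Tyk2 differed by -0.29, Jak1 by -0.14, Socs2 by -0.21, Jak2 by -0.20 and Ifngr2 by 0.05, and the others by -0.16 to 0.15. With Xist signal as a covariate in limma, the differences were -0.35 for Tyk2, -0.17 for Jak1, -0.25 for Socs2 and 0.21 for Socs1, none passing (adjusted p 0.559 to 0.643). Each stratum holds 1 array in 1 group and gives no test. Control 4 fills that place for Xist, and knockout 3 does so for the Y-linked genes. Both are the extreme arrays named above for Tyk2, Jak1 and Socs2, as control 4 is for Ifngr2 and knockout 3 for Jak2. The stratum differences of these genes thus rest on single extreme arrays, and their like signs are not separate evidence for a difference by genotype.

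Signal carriers next to the kinases did not pass either. Of 10 STAT and IRF factors, 0 were called in either direction, with 5 differences above 0, 5 below and a median of -0.008. Irf9, a DNA-binding factor of the type I interferon response, had the smallest p of this list and read 5.80, 5.67, 5.26 and 5.95 in knockouts, against 4.87, 5.21, 5.11 and 5.50 in controls. Of the knockouts, 3 lay above every control and knockout 3 lay below control 4, with a difference of 0.50 (SE 0.17; limma adjusted p = 0.991). With Xist signal as a covariate it was 0.26, and within the sex strata it was 0.23 and 0.19.

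Other brakes on the pathway likewise gave 0 calls among 16 genes, with 7 differences above 0, 9 below and a median of -0.02. Usp18, an interferon-induced protease that binds IFNAR2 and shuts off the type I receptor, read 4.17, 4.38, 4.29 and 4.73 in knockouts, against 4.07, 3.63, 4.09 and 4.08 in controls. All 4 knockouts lay above all controls, as for 2 of the 16 and 1.36% of all genes, with a difference of 0.43 (SE 0.15, limma adjusted p = 0.991). The other such gene was Ptpn6, which differed by 0.18 and is named after its values were seen. For Usp18 the difference was 0.32 without control 2, 0.20 within arrays of Xist alone and 0.37 within arrays of Y-linked signal alone. Ptpn1, a phosphatase of JAK2 and TYK2, averaged 6.53 ± 0.12 in knockouts and 6.22 ± 0.14 in controls (SD, n = 4 each), a difference of 0.31 with overlap of 1 knockout. The remaining SOCS family genes of this list were named to complete the family, outside the rule for named genes. Cish, Socs4, Socs6 and Socs7 differed by -0.05 to -0.02 and Socs5 by -0.33, none passing.

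Ligands and other receptors showed no call in either direction. Of 11 interferon ligand genes, 10 were measured and 4 had a mean above the olfactory level. Ifng lay below that level on all 8 arrays, and no difference is given for it, while Ifna2, of a family of near-identical genes, averaged 3.83 ± 0.36 in knockouts and 4.13 ± 0.31 in controls (SD, n = 4 each). Its difference of -0.30 was -0.12 without knockout 2 and -0.19 without control 2. Of 15 other receptors that signal through JAK kinases, 8 had differences above 0 and 7 below, with a median of 0.04. Csf2rb2, the interleukin 3 receptor chain of mice, averaged 5.70 ± 0.08 in knockouts and 5.21 ± 0.44 in controls, and its close paralog Csf2rb, the common beta chain, averaged 7.36 ± 0.15 in knockouts and 7.10 ± 0.11 in controls (SD, n = 4 each). The adjusted p was 0.991 for Csf2rb2 and 0.9996 for Csf2rb (limma), and probes of one may bind transcripts of the other. Without control 3, at 4.61, the difference of Csf2rb2 was 0.29 in place of 0.49. Without knockouts 3 and 4, that of Csf2rb was 0.13 in place of 0.26.

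Downstream target lists had larger differences than the 10 genes, and no target passed the test. Of 12 targets of type I interferon, 10 had differences above 0, with a median of 0.31, and of 11 measured targets of interferon gamma, 10 had differences above 0, with a median of 0.40. The same median was -0.03 over the 10 receptors, kinases and SOCS genes and 0.002 over all genes. These lists were chosen with earlier results of these data known, and the gap between them and the 10 genes was not tested. Groups stood apart with knockouts higher for 3 of the 12 (Oas1a, Ifi27 and Oasl2) and for 2 of the 11 (Cxcl10 and Tap1), against 1.36% of all genes; Oasl2 and Tap1 are named after their values were seen. With knockout 3, knockout 4, both of these or control 1 left out, the median lay between 0.23 and 0.35 for type I targets, between 0.28 (without control 1) and 0.48 (without knockout 3) for interferon gamma targets, and between -0.06 and -0.004 for the 10 genes.

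Oas1a, a sensor of double-stranded RNA whose promoter is shown above, read 6.17, 5.92, 5.55 and 5.95 in knockouts, against 4.83, 4.54, 4.58 and 5.20 in controls. All knockouts were above all controls, the difference was 1.11 (SE 0.17) and the fold 2.16 (95% interval 1.67 to 2.80), with limma adjusted p = 0.362. Socs1, with the same element, differed by 0.05. Gbp3 and Irgm1, guanylate-binding and interferon-induced GTPases that hold it too, differed by 0.41 (SE 0.15) and 0.34 (SE 0.22), and Irgm1 was named for its element alone. With Xist signal as a covariate, Socs1 (0.21) and Gbp3 (0.23) had similar differences and Oas1a had 0.86, and within arrays of Xist alone Gbp3 differed by 0.05 and Socs1 by 0.18. Ifi27 differed by 0.51 (SE 0.10; limma adjusted p = 0.686) and the chemokine gene Cxcl10 by 1.29 (SE 0.31; limma adjusted p = 0.880). Oas1a differed by 0.84 within arrays of Xist alone and by 0.90 within arrays of Y-linked signal alone, and Cxcl10 by 0.55 and 2.16 in the same strata. Without knockouts 3 and 4 Cxcl10 differed by 0.74.

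Of 10 targets of STAT3 and STAT5, 7 had differences above 0, with a median of 0.11 and 0 calls. Pim1, a survival kinase gene, read 6.69, 6.66, 7.32 and 6.74 in knockouts, against 6.18, 6.56, 6.44 and 6.34 in controls. All knockouts were above all controls, with knockout 3 far above the rest, and the difference was 0.47 (SE 0.15; limma adjusted p = 0.991). Id1, an inhibitor of helix-loop-helix factors, averaged 4.69 ± 0.27 in knockouts and 4.36 ± 0.14 in controls (SD, n = 4 each; limma adjusted p = 0.9996). Without knockout 3 the difference of Id1 was 0.20 in place of 0.33, and without knockouts 3 and 4 that of Pim1 was 0.29.

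**Figure D4:**
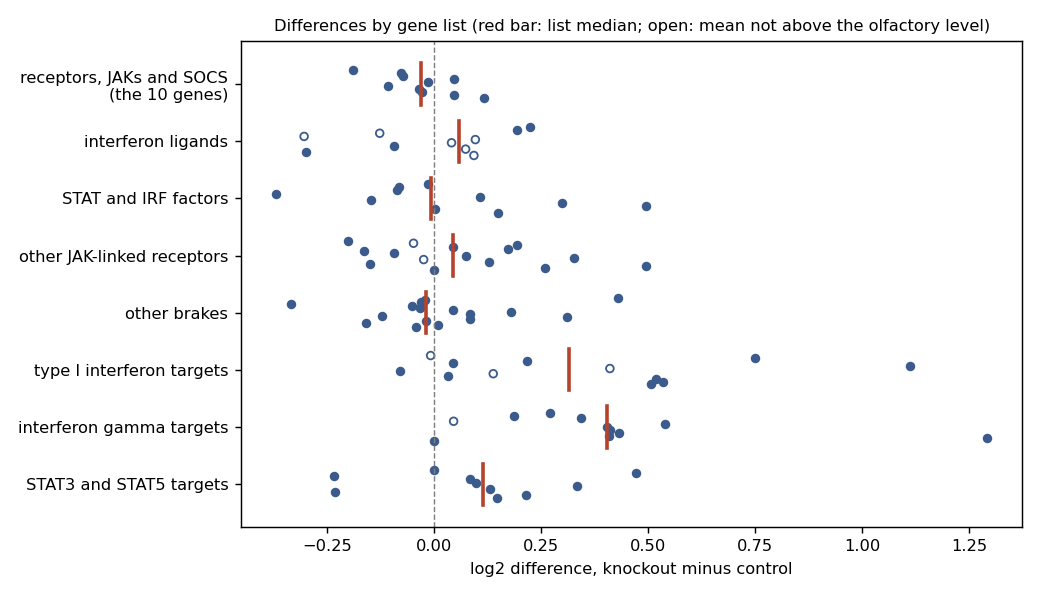
Log2 difference, knockout minus control, of each measured gene by list, with the 10 receptors, kinases and SOCS genes on top. Red bars are list medians, and open circles are genes whose mean did not exceed the olfactory level; the bars of the 2 interferon target lists lie at 0.31 and 0.40, that of the 10 genes at -0.03.

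Markers of other cells were read on the same arrays. Of 6 mast cell and basophil markers, 6 had lower values in knockouts (summed log2 signal 33.4 to 36.5 in knockouts, 35.9 to 39.1 in controls), as had 6 of 6 megakaryocyte markers (21.4 to 23.8 in knockouts, 24.1 to 26.4 in controls). Without knockout 3, 5 of the 6 megakaryocyte markers had lower values. Of 6 measured monocyte and macrophage markers, 5 had higher values in knockouts (40.7 to 41.6 in knockouts, 40.0 to 41.5 in controls). Of 5 myeloid progenitor markers, 5 had higher values in knockouts, by 0.01 to 0.04 (58.0 to 58.6 in knockouts, 58.1 to 58.4 in controls). Of 6 neutrophil markers, 5 had lower values in knockouts (median difference -0.27; summed log2 signal 25.7 to 26.9 in knockouts, 25.0 to 29.3 in controls), and Lcn2, named after its values were seen, was higher in all knockouts by 0.66. Values were lower for 3 of 4 measured erythroid markers (median -0.28; 11.0 to 12.9 in knockouts, 11.4 to 13.3 in controls) and for 4 of 6 B cell markers (median -0.14; 22.8 to 23.3 in knockouts, 23.5 to 24.6 in controls). They were also lower for 4 of 6 T and NK cell markers (median -0.08; 24.8 to 26.1 in knockouts, 25.6 to 26.8 in controls). Means passed the olfactory level for 4 of 6 neutrophil, 2 of 4 erythroid, 3 of 6 B cell and 3 of 6 T and NK markers. They did so for 5 of 6 megakaryocyte and 5 of 6 monocyte and macrophage markers. All 6 mast cell and basophil and all 5 myeloid progenitor markers passed, and counts and sums include the markers that did not pass. No marker was called, and the part of these shifts in the values of the 10 genes or of the interferon targets was not tested.

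**Figure D5:**
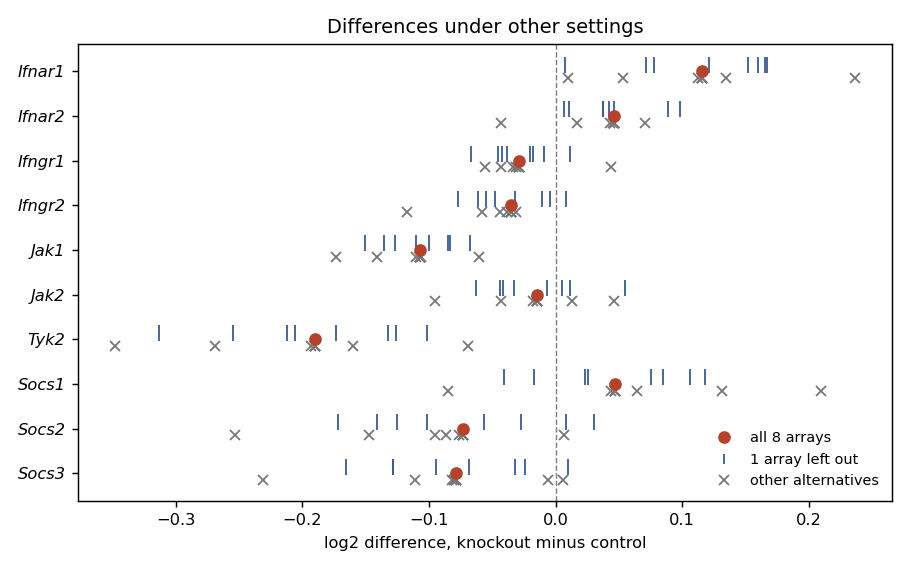
Log2 difference, knockout minus control, of the 10 genes with all 8 arrays (red points), with 1 array left out (blue ticks) and under the other alternatives (grey crosses). The differences of Ifnar1, Jak1 and Tyk2 keep their sign under every setting shown, and those of the other 7 genes cross 0 under at least 1.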

How the data were processed

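Per the labels, RNA was isolated with a PicoPure kit and amplified with an Ovation Pico kit; the series' design names Affymetrix Gene ST arrays. The deposited values are log2 signals per feature and array, made by the authors with RMA per the submitters' processing notes, which also name limma; the annotation and genome build are not given in the sources used here. Both deposited tables held the same 28853 features with a largest difference of 0. Features without a symbol (1494) were left out, and the feature of highest mean was kept per symbol.

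Knockout was compared with control in limma 3.58.1 (R 4.3.3; lmFit and eBayes, no covariate, no filter), with Benjamini-Hochberg adjustment over 24213 genes and a threshold of 0.05. The fit was tested on simulated data. Named genes were the 10 members, the 2 genes of smallest p in each of 7 pathway lists, checks of the labels, and the 3 genes most like the member of smallest p; others are marked, and 1 named gene is not reported here. Members and lists were chosen with earlier results of these data known. Ifna6, Gbp6, Adgre1, Epb42 and Hbb-b1 were not found under these symbols. Motifs were searched in the first start listed per gene. Other settings comprised the replicate block, leaving out arrays, limma-trend, a filter on dim genes, repeated quantile normalization, median centring, the second table, feature means, and Xist or Y-linked signal as a covariate; leaving out knockouts 3 and 4 together, and recounting the lists without these or control 1, was chosen after seeing the data.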

Additional observations from a re-analysis of the deposited data

Results flagged for a closer look

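In 4 of 48 groups of 4 arrays examined (the 10 genes and the 14 named pathway genes), 1 array lay far from the other 3 relative to the group's range; chance marks about 1 in 20. None of these was in the 10 genes. Knockout 2 read 3.28 for Ifna2, with the nearest other knockout at 3.98. Control 2 read 3.63 for Usp18, with the nearest other control at 4.07. Knockout 4 read 6.34 for Ptpn1, with the nearest other knockout at 6.57. Knockout 3 read 7.32 for Pim1, with the nearest other knockout at 6.74.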

How the results depend on the processing

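Of the 10 genes, 0 were called under any of the 18 alternatives, and the lowest adjusted p of any was 0.559 (Tyk2 with Xist signal as a covariate, log2 difference -0.35). Over all genes the count of calls was 1 with all arrays, 0 to 3 with 1 array left out (3 without control 4), and 0 with the replicate block, median centring, Xist or Y-linked signal as a covariate, or knockouts 3 and 4 left out together. Of 180 differences of the 10 genes, 48 could not move, since the replicate block, limma-trend, the filter, the identical second table and, for genes of 1 feature, the feature mean keep the estimate; of the other 132, 17 changed sign. With 1 array left out the ranges that cross 0 were -0.067 to 0.011 for Ifngr1, -0.077 to 0.0079 for Ifngr2, -0.063 to 0.055 for Jak2, -0.041 to 0.12 for Socs1, -0.17 to 0.031 for Socs2 and -0.17 to 0.010 for Socs3. The sign also changed for Jak2 with repeated quantile normalization (0.013), for Ifnar2 (-0.043) and Socs3 (0.0057) with Xist as a covariate, and, without knockouts 3 and 4, for Ifngr1 (0.044), Jak2 (0.046), Socs1 (-0.085) and Socs2 (0.0065). The cause was not tested. Same-numbered arrays correlated at -0.11, 0.15, 0.04 and 0.03 in their deviations from the group means, so the numbers were not taken as pairs. The block cannot move these differences and left 0 of the 10 genes called. The number of arrays and, for Socs2 and Socs3, signal near background limit what could be seen.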
